A study of Mus musculus with 2 samples.

Results

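Toll-like receptors and their shared adaptor were followed across the macrophages, monocytes, dendritic cells (DCs) and B cells of mouse spleen in single-cell RNA sequencing (scRNA-seq) data. The genes were taken by symbol: Tlr2, Tlr3, Tlr4, Tlr7, Tlr8, Tlr9, Tlr13 and Myd88, which are 8 of the 26124 genes that the deposited matrices hold. All 8 had a row and at least 1 unique molecular identifier (UMI, a tag that marks 1 captured RNA molecule) in both libraries.

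Toll-like receptors are germline-encoded sensors of microbial molecules and of some molecules released by damaged cells. Tlr2 and Tlr4 sit on the cell surface and detect bacterial lipoproteins and lipopolysaccharide, whereas Tlr3, Tlr7, Tlr8, Tlr9 and Tlr13 act in endosomes and detect nucleic acids. Myd88 carries the signal of all of them except Tlr3, which signals through Ticam1, and Tlr4 uses both adaptors. In the spleen, red pulp macrophages (RPMs) clear aged red cells, and free heme from lysed red cells is known as a ligand of Tlr4.

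The study set a Berkeley mouse with sickle cell disease (SCD) beside a non-sickling control, with 1 library from 1 spleen of 1 mouse for each. The library labelled wild-type came from a control that was homozygous for Hbatm1Paz (a deletion of the mouse α-globin genes), heterozygous for Hbbtm1Tow (a deletion of the adult mouse β-globin genes) and hemizygous for Tg(HBA-HBBs)41Paz, the human sickle globin transgene. The library labelled SCD came from a mouse homozygous for all of these alleles. The Hba deletion and the transgene were therefore carried by both mice. The mice were 12 to 16 weeks old and no treatment was labelled. Spleen cells were depleted of red cells by lysis and enriched with beads against F4/80, a surface protein of macrophages, so shares of cell types reflect this enrichment.

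After filtering, 19418 cells remained in the wild-type-labelled library and 12279 in the SCD-labelled library, with medians of 4115.5 and 4571 UMIs per cell. The 2 libraries shared 65 cell barcodes among the kept cells. Mouse adult β-globin went against the labels: in erythroid-like cells Hbb-bs had a CPM (UMI counts scaled to the same total) of 143 in the wild-type-labelled library and of 44787 in the SCD-labelled library, the library whose label gives a homozygous deletion of the adult β-globin locus. Every direction given here therefore names the library by its label. Whether the labels were exchanged was not tested, so no direction is read as that of the disease. Both libraries held transcripts of the Y chromosome, with Ddx3y at 176 and 185 CPM, which bears on Tlr7, Tlr8 and Tlr13 because these genes are X-linked.

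Clusters were named from marker genes, leaving the 8 genes out of the clustering, and these names may differ from those of the study. RPM-like cells numbered 4668 in the wild-type-labelled library and 1592 in the SCD-labelled library. Cells with macrophage and erythroid markers together, called erythroblastic island (EBI)-like, numbered 5546 and 910. Ly6c-high monocyte-like cells numbered 1016 and 887, Ly6c-low monocyte-like cells 433 and 1022, DC-like cells 1218 and 2852, and B lymphocyte-like cells 526 and 1742. The DC-like cells joined type 2 conventional (cDC2)-like cells, 767 and 2205, with mature DC-like cells, 451 and 647. A cluster led by Cd209a, with 498 and 1279 cells, carried markers of both monocytes and DCs and was left without a name. Of its cells, 17.5% and 33.8% were scored as doublets, and their part in its mixed markers was not tested. The threshold for doublets was set differently in each library, so doublet shares here and below are not on the same scale. Further clusters without a name, 2995 and 1700 cells, were kept apart, and 35.4% and 71.6% of their cells were scored as doublets. Among them, a cluster led by Gpr82 with 908 and 543 cells had 5 of 8 cDC2 markers raised and 23.2% scored doublets. It met the threshold for macrophage markers, but its leading genes pointed to another class. The further clusters held 296 of 402 and 35 of 304 Xcr1 UMIs. None of their cells enter the DC-like values. Levels are CPM of UMIs summed over the cells of a class, with 95% exact Poisson intervals in brackets, and ratios are log2 of SCD-labelled over wild-type-labelled with 95% exact conditional intervals. With 1 library per group no test of the conditions was possible, and all intervals cover counting error only.

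The 8 genes lie on 5 chromosomes (GRCm38, GENCODE M21 gene spans). Tlr7 (X:167304929-167330558, minus strand) and Tlr8 (X:167242696-167264329, minus strand) are neighbours with 40599 bases between them, and Tlr13 lies elsewhere on the X chromosome (X:106143204-106160493, plus strand). Tlr4 spans 4:66827584-66930284 on the plus strand, Tlr2 spans 3:83836272-83841767 on the minus strand, and Tlr9 spans 9:106222598-106226883 on the plus strand. Tlr3 (8:45395665-45411080, minus strand) overlaps an antisense gene, Gm45542. Myd88 (9:119335934-119341411, minus strand) overlaps Acaa1a on the opposite strand. Myd88 also lies inside the annotated span of Slc22a14 on its own strand, and how reads in that overlap were counted was not examined. RefSeq promoter windows of 300 bases (GRCm38.p6, 250 bases before to 50 after the RefSeq start) were at hand for 6 of the 8 genes, not for Tlr4 and Tlr7. Tlr13, Tlr8 and Myd88 are printed because their levels were highest in monocyte-like cells in both libraries, and Tlr3 because its levels were highest elsewhere. The windows are chrX:106143025-106143324 (plus strand), chrX:167264280-167264579 (minus strand), chr9:119339969-119340268 (minus strand) and chr8:45410331-45410630 (minus strand), each written along the strand of its gene, with capitals marking a motif.
Tlr13: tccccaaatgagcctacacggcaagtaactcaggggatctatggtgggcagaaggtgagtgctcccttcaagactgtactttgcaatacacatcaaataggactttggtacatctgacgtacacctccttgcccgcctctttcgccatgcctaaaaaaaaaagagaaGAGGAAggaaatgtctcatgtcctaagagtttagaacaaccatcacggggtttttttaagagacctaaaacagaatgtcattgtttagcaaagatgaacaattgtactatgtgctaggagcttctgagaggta
Tlr8: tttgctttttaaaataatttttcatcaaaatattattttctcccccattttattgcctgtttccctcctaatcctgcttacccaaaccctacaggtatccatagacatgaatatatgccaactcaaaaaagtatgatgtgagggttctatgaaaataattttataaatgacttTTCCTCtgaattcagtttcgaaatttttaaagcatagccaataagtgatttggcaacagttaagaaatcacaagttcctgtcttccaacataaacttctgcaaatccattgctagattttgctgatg
Myd88: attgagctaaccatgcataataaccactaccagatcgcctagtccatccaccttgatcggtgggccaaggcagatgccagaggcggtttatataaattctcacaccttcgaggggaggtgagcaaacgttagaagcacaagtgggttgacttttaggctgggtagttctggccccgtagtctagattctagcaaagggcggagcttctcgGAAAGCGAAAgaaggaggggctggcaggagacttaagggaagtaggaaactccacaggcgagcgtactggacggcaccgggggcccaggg
Tlr3: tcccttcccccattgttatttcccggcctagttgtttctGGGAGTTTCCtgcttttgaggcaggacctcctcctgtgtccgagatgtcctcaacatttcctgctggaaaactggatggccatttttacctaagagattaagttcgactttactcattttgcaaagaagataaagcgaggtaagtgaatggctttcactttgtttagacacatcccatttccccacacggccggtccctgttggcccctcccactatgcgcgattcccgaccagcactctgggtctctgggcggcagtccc
In Tlr13 and Tlr8 the capitals mark the core bound by PU.1, a factor of myeloid cells and B cells (GAGGAA, searched on both strands and found as its reverse complement in Tlr8). In Myd88 they mark a core bound by interferon regulatory factors (the ISRE core, both strands), and in Tlr3 the NF-kB consensus (both strands). The PU.1 core stood in 3 of the 6 windows, those of Tlr8, Tlr9 and Tlr13, against 28.3% of 32851 windows of the same length. The interferon core stood in 1, against 3.44%, and the NF-kB consensus in 2, those of Tlr2 and Tlr3, against 8.46%. Each printed window held 1 of these motifs, so no motifs overlap. These are matches of letters, and no binding was measured.

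Tlr4 was highest in macrophage-like cells in both libraries. In the wild-type-labelled library, Tlr4 stood at 170.2 CPM (164 to 177) in RPM-like cells, 123 CPM (119 to 127) in EBI-like cells and 77.9 CPM (65.7 to 91.6) in Ly6c-low monocyte-like cells. The same classes of the SCD-labelled library stood at 206 CPM (196 to 217), 115 CPM (105 to 126) and 66.1 CPM (58.7 to 74.1). These first 3 classes had the same order in both libraries and their intervals did not overlap, before the subtraction of macrophage RNA described below. Between libraries, the log2 ratio of Tlr4 was 0.28 (0.19 to 0.37) in RPM-like cells, close to the median of 0.22 over all genes in that class, and 0.02 after scaling by trimmed mean of M values (TMM), which lowered every ratio of the class by 0.25. The Tlr4 ratio was -0.09 (-0.24 to 0.05) in EBI-like cells. The 2 libraries filled the EBI-like class from different clusters: 632 of the 910 cells of the SCD-labelled library were in a cluster led by Hbb-bs, which held 17 cells of the wild-type-labelled library, and 6.17% and 20.4% of the class were scored as doublets. The EBI-like cluster led by Xpo7, with 1509 and 165 cells, was therefore also taken alone, a choice made after the data were seen, and there the Tlr4 ratio was -0.54 (-0.99 to -0.11). Its median macrophage marker was 5.18-fold above the reference B cells, against 8.12-fold to 9.92-fold in the RPM-like clusters. Its median erythroid marker was 27.5-fold above them. How much of this cluster was macrophage was not tested, which limits every ratio given for it.

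Outside the macrophages, Tlr4 had a negative ratio in every monocyte, DC and B class, and the interval excluded 0 in Ly6c-high monocyte-like cells, mature DC-like cells and the Cd209a-led cluster. In Ly6c-high monocyte-like cells it stood at 56.6 CPM (51.1 to 62.5) in the wild-type-labelled library and at 30.2 CPM (25.8 to 35.3) in the SCD-labelled library, a log2 ratio of -0.90 (-1.18 to -0.64). In mature DC-like cells it stood at 65.1 CPM (54.3 to 77.3) and 26.6 CPM (21.0 to 33.2), a log2 ratio of -1.29 (-1.72 to -0.87). Macrophage transcripts moved with both values, and scored doublets made up 7.58% and 1.58% of the Ly6c-high and 7.98% and 18.4% of the mature DC-like cells. All 13 red pulp macrophage markers had UMIs in every non-macrophage class, and their summed level was 11190 and 2962 CPM in Ly6c-high monocyte-like cells and 16063 and 5953 CPM in mature DC-like cells. Scaling the Tlr4 of RPM-like cells by the C1qa, C1qb and C1qc level of each class gave a prediction of Tlr4 from macrophage RNA alone. In erythroid-like cells this prediction was too high: measured Tlr4 was 0.787 and 0.607 times it, with intervals below it. The Tlr4 prediction may thus be too high in other classes too, and subtracting it may take away too much. Measured Tlr4 was 0.994 and 0.834 times this prediction in mature DC-like cells and 0.763 and 1.07 times it in cDC2-like cells, with the prediction inside the Poisson interval each time. It was 1.30 and 2.23 times the prediction in Ly6c-high monocyte-like cells and 1.41 and 1.26 times in B lymphocyte-like cells. In Ly6c-low monocyte-like cells it was 1.17 and 1.28 times the prediction, and 1.08 and 1.23 times in the Cd209a-led cluster. For the latter classes, the prediction lay inside the interval in the wild-type-labelled library and below it in the SCD-labelled library. With the predicted part subtracted, 11.2 and 14.3 CPM remained in Ly6c-low and 12.9 and 16.7 CPM in Ly6c-high monocyte-like cells. The Ly6c-high ratio became 0.37, of the opposite sign, but no interval was computed for it, so no direction is read from it.

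Tlr2, the receptor for lipoproteins, was spread over monocyte-like and macrophage-like cells. In the wild-type-labelled library it was highest in Ly6c-high monocyte-like cells at 95.5 CPM (88.3 to 103), followed by Ly6c-low monocyte-like cells at 77.3 CPM (65.2 to 91.0) and RPM-like cells at 67.2 CPM (63.3 to 71.3). Among SCD-labelled cells these classes stood at 61.0 CPM (54.6 to 68.0), 56.1 CPM (49.4 to 63.6) and 62.0 CPM (56.5 to 67.9), and their intervals all overlapped. The log2 ratios were -0.65 (-0.84 to -0.45) in Ly6c-high and -0.46 (-0.76 to -0.16) in Ly6c-low cells. EBI-like cells, at 52.2 CPM (49.6 to 55.0) and 39.6 CPM (33.6 to 46.3), gave -0.40 (-0.65 to -0.16), with -1.46 (-2.47 to -0.60) in the Xpo7-led cluster from 377 and 11 UMIs, and RPM-like cells gave -0.12 (-0.28 to 0.04). Measured Tlr2 in Ly6c-high monocyte-like cells was 5.53 and 15 times the macrophage prediction, and the ratio after subtraction was -0.46.

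**Figure D1:**
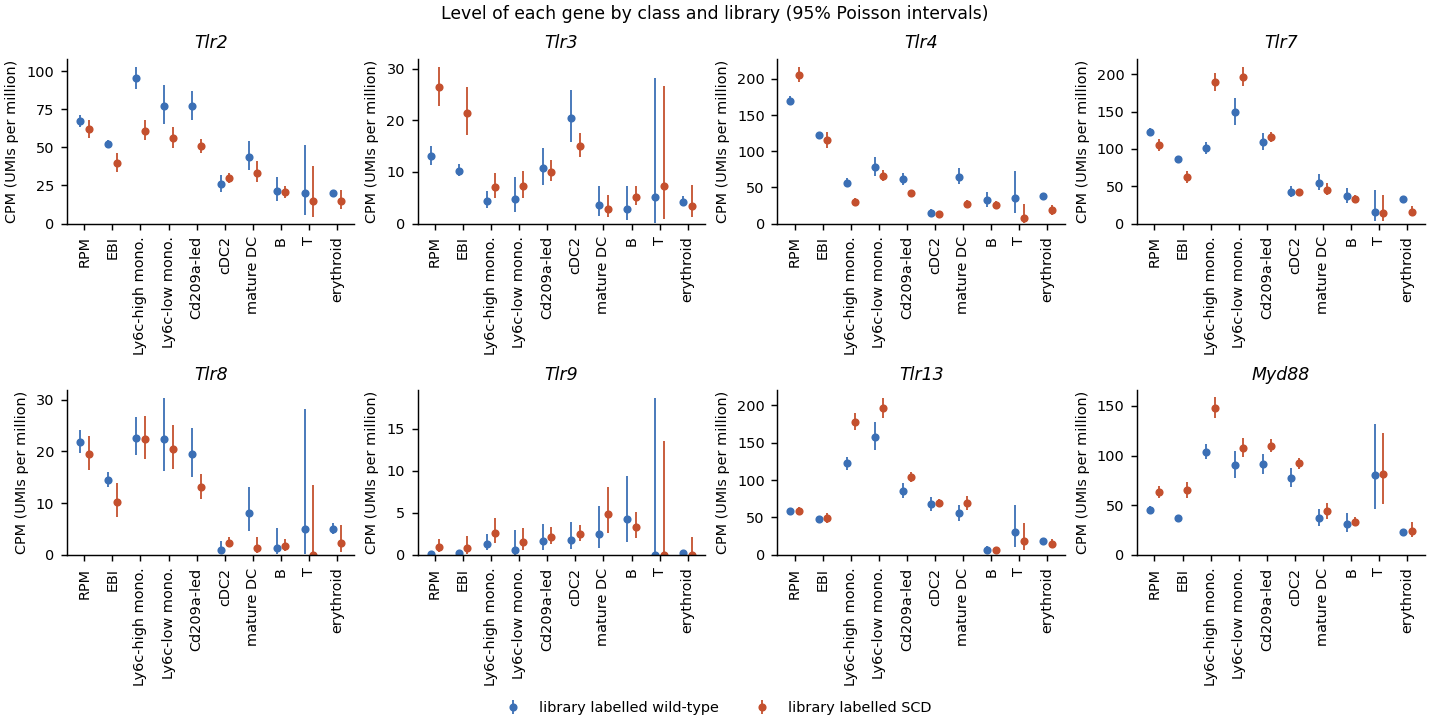
Level of each of the 8 genes (CPM of summed UMIs, linear axes from 0) by class in the wild-type-labelled library and the SCD-labelled library. Points are 1 library each and bars are 95% exact Poisson intervals. Tlr4 peaks in RPM-like cells in both libraries, at 170.2 and 206 CPM, and Tlr13 in Ly6c-low monocyte-like cells, at 158 and 196 CPM.

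Tlr7, the sensor of single-stranded RNA, was highest in Ly6c-low monocyte-like cells in both libraries, at 149 CPM (132 to 168) in the wild-type-labelled library and 197 CPM (184 to 210.1) in the SCD-labelled library. Below that the order differed. RPM-like cells came next in the wild-type-labelled library at 123 CPM (117 to 128), overlapping the Cd209a-led cluster at 109 CPM (98.9 to 121), whereas Ly6c-high monocyte-like cells came next in the SCD-labelled library at 189 CPM (178 to 202). The Ly6c-high cells stood at 101 CPM (93.7 to 109) in the wild-type-labelled library, which gave a log2 ratio of 0.91 (0.77 to 1.05). In Ly6c-low cells the ratio was 0.40 (0.20 to 0.60). The summed macrophage-like classes had the other direction, with -0.22 (-0.34 to -0.10) in RPM-like and -0.47 (-0.66 to -0.28) in EBI-like cells. Of the EBI-like cells, the Xpo7-led cluster gave -1.16 (-1.88 to -0.52). A cluster led by Rgs1 held most RPM-like cells of the SCD-labelled library. Taken alone, it gave 0.27 (-0.62 to 1.33), from 10 UMIs in the wild-type-labelled library. This interval held both 0 and the ratio of the whole RPM-like class, so no direction is read there. Markers of Ly6c-low monocytes moved with the Ly6c-high value: all 7 had UMIs in the Ly6c-high class and summed to 646 CPM in the wild-type-labelled library and 1393 CPM in the SCD-labelled library. Their part in the result was not tested. With the predicted macrophage RNA subtracted, Ly6c-low cells stood at 101 and 170 CPM and Ly6c-high cells at 69.6 and 183 CPM. RPM-like cells, which allow no subtraction, stood at 123 and 105 CPM. The first place of Ly6c-low cells thus held in neither library after subtraction, and no intervals were computed for it.

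Tlr13, which senses bacterial ribosomal RNA, followed the monocytes in both libraries. The wild-type-labelled values were 158 CPM (140.4 to 177) in Ly6c-low monocyte-like cells, 122 CPM (114 to 131) in Ly6c-high and, below the Cd209a-led cluster, 67.8 CPM (59.2 to 77.2) in cDC2-like cells, with RPM-like cells at 59.1 CPM (55.5 to 63.0). The SCD-labelled values were 196 CPM (183 to 209), 178 CPM (166 to 189), 69.2 CPM (64.5 to 74.2) and 58.2 CPM (52.9 to 64.0). The 2 monocyte classes were apart in the wild-type-labelled library and overlapped in the SCD-labelled library, and cDC2-like and RPM-like cells, neighbours in wild-type-labelled cells, overlapped there. The log2 ratio was 0.54 (0.40 to 0.68) in Ly6c-high and 0.31 (0.12 to 0.51) in Ly6c-low monocyte-like cells, and -0.02 (-0.19 to 0.14) in RPM-like cells. The higher level of Ly6c-low markers in the Ly6c-high class, given above for Tlr7, applies to this Ly6c-high ratio too, and its part was not tested. B lymphocyte-like cells had the lowest Tlr13 in both libraries, at 6.45 CPM (2.95 to 12.3) and 6.66 CPM (4.76 to 9.08), which was 0.809 and 1.13 times the macrophage prediction.

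Tlr8, a further endosomal receptor and the neighbour of Tlr7, had its highest levels in Ly6c-high monocyte-like cells, at 22.7 CPM (19.3 to 26.6) and 22.4 CPM (18.6 to 26.8), but the Ly6c-low and RPM-like classes overlapped these in both libraries. With the predicted macrophage RNA subtracted, Ly6c-high cells stood at 17.1 and 21.1 CPM. RPM-like cells, which allow no subtraction, stood at 21.8 and 19.5 CPM, so they came first in the wild-type-labelled library. Without subtraction, the Tlr8 ratios were -0.02 (-0.38 to 0.34) in Ly6c-high cells and -0.16 (-0.44 to 0.13) in RPM-like cells. The Ly6c-high interval of Tlr8 lay below that of Tlr7, and the difference between the genes was not tested. Tlr8 in B lymphocyte-like cells rested on 2 and 10 UMIs, at 0.488 and 0.842 times the macrophage prediction.

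Tlr3, the sensor of long RNA duplexes, had higher levels in the summed RPM-like and EBI-like classes of the SCD-labelled library, each filled from different clusters in the 2 libraries. RPM-like cells stood at 13.1 CPM (11.4 to 14.97) and 26.4 CPM (22.9 to 30.4), a log2 ratio of 1.01 (0.73 to 1.30), and EBI-like cells at 10.3 CPM (9.13 to 11.5) and 21.5 CPM (17.1 to 26.6), a ratio of 1.06 (0.69 to 1.42). The Hbb-bs-led cluster of the SCD-labelled library stood at 25.0 CPM. In the Xpo7-led EBI-like cluster the levels of 9.40 CPM (7.42 to 11.8) and 12.2 CPM (5.26 to 24.0) overlapped, from 77 and 8 UMIs, with a ratio of 0.37 (-0.89 to 1.42). The ratio in RPM-like cells was 0.76 after TMM scaling, and the Rgs1-led cluster, which held most RPM-like cells of the SCD-labelled library, had 1 Tlr3 UMI in the wild-type-labelled library. Markers of type 1 conventional DCs (cDC1s), cells known for Tlr3, summed over 6 genes to 775 and 1326 CPM in RPM-like cells. Of these markers, Xcr1 stood at 0.718 and 0.944 CPM and Clec9a at 0.239 and 1.48 CPM there. The part of cDC1 RNA in the Tlr3 ratio was not tested.

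In cDC2-like cells a few cells held a large share of Tlr3. Cells with a UMI of Xcr1 or Clec9a, a division chosen after the data were seen, numbered 7 in the wild-type-labelled library and 37 in the SCD-labelled library, and they held 31 of 68 and 52 of 172 Tlr3 UMIs. Their Tlr3 level was 474 CPM (322 to 672) and 158 CPM (118 to 207), against 11.4 CPM (8.01 to 15.7) and 10.8 CPM (8.97 to 12.9) in the remaining 760 and 2168 cells. Cells with such a UMI were also deeper, with medians of 10362 and 7856 UMIs against 3386.5 and 4695.5. No Tlr9 UMI was found in them, and the intervals reached from 0 to 56.4 CPM and from 0 to 11.2 CPM.

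**Figure D2:**
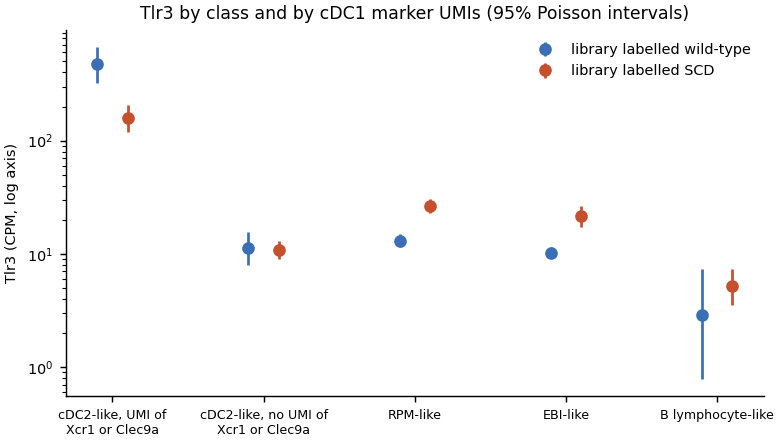
Tlr3 level (CPM, log axis) in cDC2-like cells with and without a UMI of the cDC1 markers Xcr1 or Clec9a, and in RPM-like, EBI-like and B lymphocyte-like cells, in each library. Points are 1 library each and bars are 95% exact Poisson intervals. The cells with a UMI stand at 474 and 158 CPM, and the remaining cDC2-like cells at 11.4 and 10.8 CPM.

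Tlr9, the sensor of unmethylated CpG DNA, was sparse everywhere. It was highest in B lymphocyte-like cells in the wild-type-labelled library, at 4.30 CPM (1.58 to 9.36), and in mature DC-like cells in the SCD-labelled library, at 4.83 CPM (2.64 to 8.11), and the next classes overlapped in both cases. In RPM-like cells 2 and 7 UMIs were counted, a log2 ratio of 2.98 (0.59 to 6.28). Plasmacytoid DCs, another known site of Tlr9, formed no class, and the 2 and 4 B lymphocyte-like cells with a UMI of the plasmacytoid marker Siglech held no Tlr9 UMI. Of 176 and 77 Siglech UMIs, 125 and 18 were in the further clusters without a name, which also held 26 and 21 Tlr9 UMIs. Tlr9 in the Siglech-positive cells of those clusters was not examined. At this depth the order of Tlr9 levels among DC-like and B lymphocyte-like cells was not detectable.

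Myd88, the adaptor, had a positive ratio in the macrophage-like, monocyte-like, DC-like and B lymphocyte-like classes. The Rgs1-led part of the RPM-like cells taken alone gave -0.47 (-1.36 to 0.60), an interval that held the class ratio, so no direction is read. The Myd88 level was highest in Ly6c-high monocyte-like cells in both libraries, at 104 CPM (96.1 to 112) and 148 CPM (138 to 158), a log2 ratio of 0.51 (0.37 to 0.66). RPM-like cells stood at 45.6 CPM (42.4 to 48.9) and 63.0 CPM (57.4 to 68.9), a ratio of 0.47 (0.30 to 0.63) that was 0.21 after TMM scaling, and EBI-like cells at 37.6 CPM (35.4 to 39.9) and 64.9 CPM (57.1 to 73.4), a ratio of 0.79 (0.58 to 0.99). In the Xpo7-led EBI-like cluster alone, Myd88 at 32.1 CPM (28.4 to 36.2) and 39.6 CPM (25.9 to 58.0) overlapped, a ratio of 0.30 (-0.34 to 0.89). The joined DC-like cells gave 0.40 (0.23 to 0.58), but the make-up of this class differed between the libraries. Taken alone, cDC2-like cells gave 0.25 (0.05 to 0.45), from 77.4 and 92.2 CPM. Mature DC-like cells gave 0.25 (-0.17 to 0.69), from 36.8 and 43.9 CPM. In Ly6c-low monocyte-like cells the levels of 90.1 CPM (77.1 to 105) and 108 CPM (98.1 to 118) overlapped, and the ratio of 0.26 had an interval that reached 0. B lymphocyte-like cells stood at 31.5 CPM (22.9 to 42.3) and 33.5 CPM (29.0 to 38.5), a ratio of 0.09 (-0.39 to 0.59). These levels were 5.14 and 5.26 times the macrophage prediction, which holds no RNA from other cells. Myd88 of erythroid-like cells was 1.83 and 2.67 times its prediction.

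In the joined DC-like class, Tlr4 was the receptor whose interval excluded 0, at 33.6 CPM (28.8 to 38.9) and 16.1 CPM (14.1 to 18.3), a log2 ratio of -1.06 (-1.35 to -0.77), with both of its subclasses at the macrophage prediction. Mature DC-like cells, in which Tlr4 was higher, made up 451 of the 1218 cells of the wild-type-labelled library and 647 of the 2852 of the SCD-labelled library, so the make-up of the joined class differed. In cDC2-like cells alone Tlr4 stood at 14.8 and 13.5 CPM, a ratio of -0.13 (-0.60 to 0.36). In the joined class Tlr13 stood at 63.2 and 69.1 CPM, a ratio of 0.13 (-0.05 to 0.31). Tlr7 stood there at 46.8 and 42.9 CPM, a ratio of -0.12 (-0.34 to 0.09). The joined-class ratios of Tlr2, Tlr3, Tlr8 and Tlr9 lay between -0.73 and 0.50 with intervals that included 0. Within the subclasses, the interval also excluded 0 for Tlr3 in cDC2-like cells, at -0.44 (-0.86 to -0.02). Of the Tlr3 UMIs there, 31 of 68 and 52 of 172 came from the 7 and 37 cells with a UMI of Xcr1 or Clec9a. In the remaining cDC2-like cells the Tlr3 levels of 11.4 CPM (8.01 to 15.7) and 10.8 CPM (8.97 to 12.9) overlapped. For Tlr8 in mature DC-like cells the interval excluded 0 too, at -2.55 (-4.59 to -0.91), from 16 and 4 UMIs. These Tlr8 levels were 0.963 and 0.457 times the macrophage prediction, which lay inside the Poisson interval each time.

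Shares of cells with a UMI were compared after each cell was thinned to 1000 UMIs. Tlr4 was found in 13% and 18.6% of RPM-like cells (34.3% and 49.2% before thinning) and in 2.49% and 2.2% of B lymphocyte-like cells (7.6% and 7.69%). Tlr13 was found in 16.7% and 18.0% of Ly6c-low monocyte-like cells (43.6% and 51.9% before thinning) and in 0.575% and 0.753% of B lymphocyte-like cells (1.71% and 2.12%). Thinning left out 677 and 135 RPM-like cells with fewer UMIs. The median depths were 2124 and 4161 UMIs in RPM-like cells, 3357 and 3626 in Ly6c-low monocyte-like cells and 2198.5 and 2901.5 in B lymphocyte-like cells. C1qa, which B cells should lack, was found in 38.3% and 22.5% of thinned B lymphocyte-like cells, a background that was larger in the wild-type-labelled library. The part of free RNA in the Tlr13 share of B lymphocyte-like cells was not tested.

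Counted by class, the directions of the 8 genes were mixed. In RPM-like cells 4 of the 8 were lower in the SCD-labelled library, where 35.3% of 12021 genes with at least 20 UMIs were lower, and in EBI-like cells 4 were lower, against 51.5%. In Ly6c-high monocyte-like cells 3 were lower against 49.6%, and in Ly6c-low monocyte-like cells 3 against 40.6%. In DC-like cells 5 were lower against 48.7%, and in B lymphocyte-like cells 4 against 41.6%. The shares over all genes took only genes with at least 20 UMIs. With that floor, 4 of 7 members were lower in RPM-like, EBI-like and B lymphocyte-like cells and 3 of 7 in Ly6c-low cells. In Ly6c-high and DC-like cells all 8 passed it. With at most 8 genes these counts lie near the background and are no result about the members. The medians over members with at least 20 UMIs were -0.02 for 7 members in RPM-like cells, 0.53 for 8 in Ly6c-high, 0.26 for 7 in Ly6c-low, -0.11 for 8 in DC-like and -0.07 for 7 in B lymphocyte-like cells, beside medians over all genes of 0.22, 0.00, 0.10, 0.01 and 0.07. In B lymphocyte-like cells no member's interval excluded 0, and the intervals were wide, from -0.65 to 0.56 for Tlr2 and from -0.58 to 0.35 for Tlr7.

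**Figure D3:**
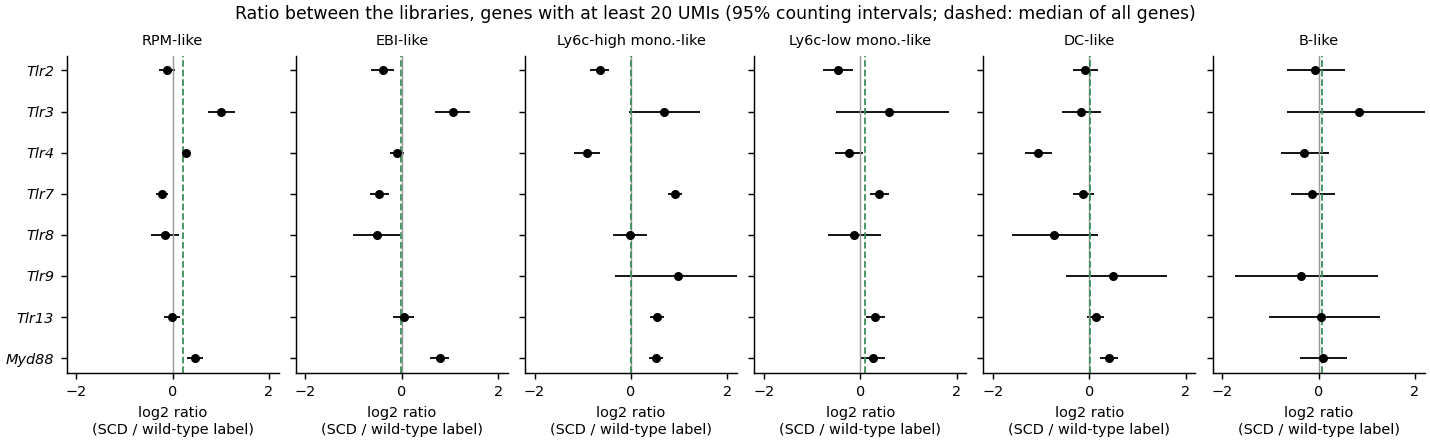
Log2 ratio of the SCD-labelled library over the wild-type-labelled library for each gene with at least 20 UMIs in a class, with 95% exact conditional intervals that cover counting error only and a dashed line at the median of all genes. Tlr7 in Ly6c-high monocyte-like cells, at 0.91, and Tlr4 in DC-like cells, at -1.06, have intervals that do not reach 0.

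The 2 libraries filled the RPM-like class from different clusters, which limits every RPM-like ratio. In the wild-type-labelled library it held 1097 cells of a cluster led by Gm37697 and 3521 of a cluster led by Marco, a scavenger receptor, whereas 1543 of the 1592 cells of the SCD-labelled library were in a cluster led by Rgs1, which held 50 cells of the wild-type-labelled library. A cluster mostly from 1 library may be that library and not a cell state. Within the wild-type-labelled library, the Gm37697-led cells had more Tlr4 than the Marco-led cells, 199 against 137 CPM, more Tlr7, 140.5 against 103 CPM, and more Tlr8, 28.5 against 14.2 CPM, while Myd88 was 44.7 and 45.9 CPM. The Rgs1-led cells of the SCD-labelled library stood at 207 CPM of Tlr4, 105 CPM of Tlr7, 19.6 CPM of Tlr8 and 63.0 CPM of Myd88. For Tlr4 the spread between clusters of 1 library was thus wider than the difference between libraries. The Gm37697-led and Marco-led clusters also differed in depth, with medians of 7312.5 and 1626 UMIs per cell. The part of depth in this spread was not tested. In the Rgs1-led cluster alone, the Tlr4 ratio was -0.02 (-0.60 to 0.63) and the Myd88 ratio -0.47 (-1.36 to 0.60), from 24 and 10 UMIs in the wild-type-labelled library.

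**Figure D4:**
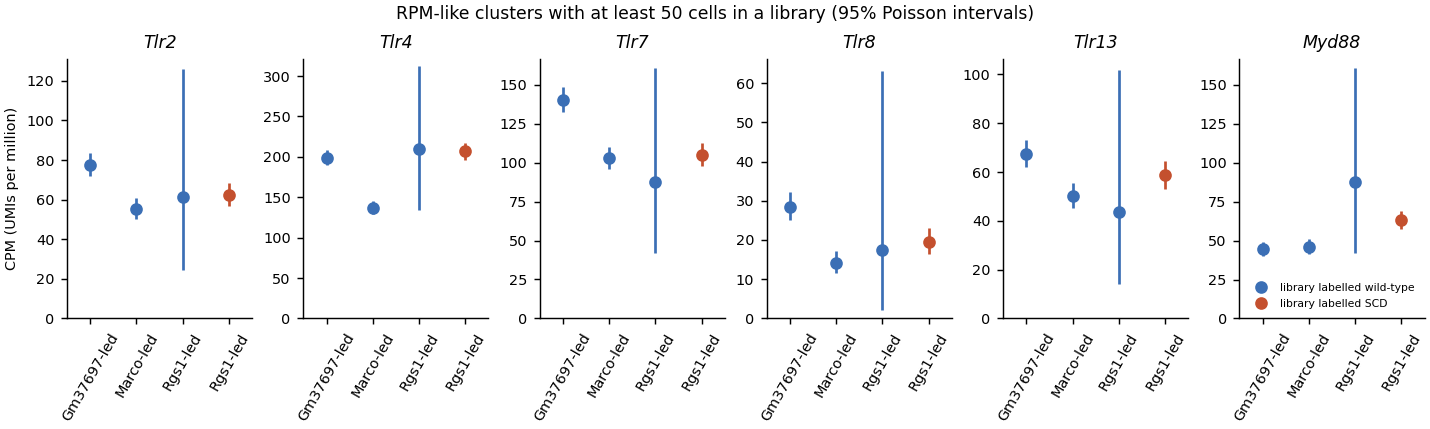
Levels of 6 genes (CPM, linear axes from 0) in each RPM-like cluster with at least 50 cells in a library. Points are summed cells of 1 cluster in 1 library and bars are 95% exact Poisson intervals. Tlr4 is at 199 and 137 CPM in the Gm37697-led and Marco-led clusters of the wild-type-labelled library and at 207 CPM in the Rgs1-led cluster of the SCD-labelled library.

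Macrophage RNA reached the other classes unequally. The C1q level of Ly6c-high monocyte-like cells was 25.7% of that of RPM-like cells in the wild-type-labelled library and 6.57% in the SCD-labelled library, and in B lymphocyte-like cells it was 13.5% and 10.1%. This measure also counts any C1q that a cell makes itself. The prediction made from it holds no RNA from cells other than macrophages. In erythroid-like cells, Tlr13 was 1.12 and 1.75 times and Myd88 1.83 and 2.67 times the prediction, with intervals above it. Whether erythroid-like cells made these transcripts was not tested. Tlr13, Tlr7 and Myd88 of Ly6c-high monocyte-like cells were 8.05 and 46.4 times, 3.21 and 27.4 times, and 8.86 and 35.7 times the macrophage prediction. After subtraction their ratios were 0.70, 1.39 and 0.65, in the same direction as before.

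**Figure D5:**
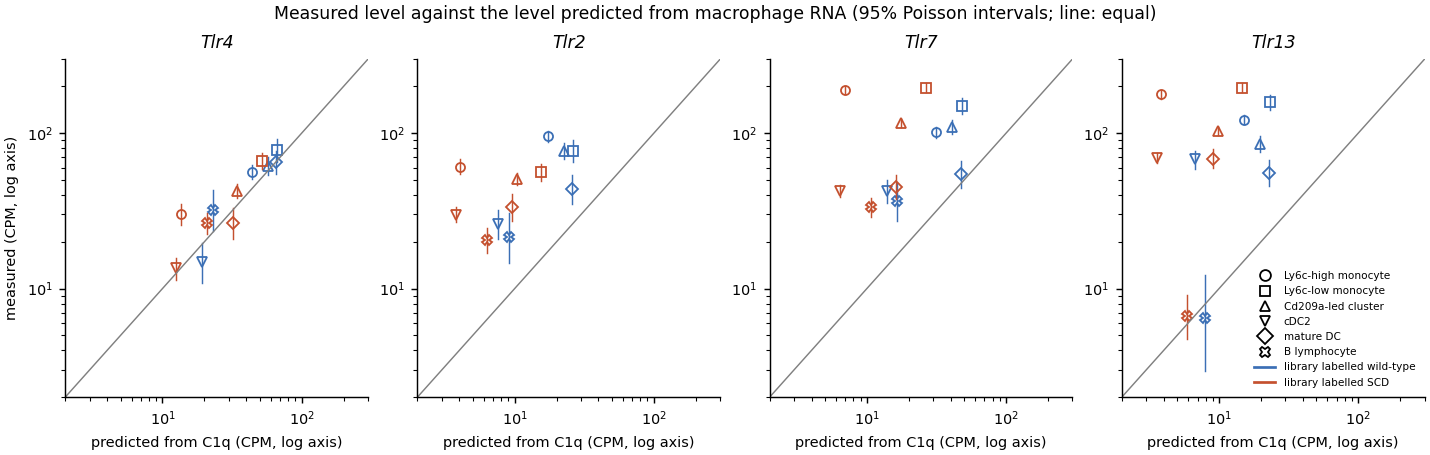
Measured level of Tlr4, Tlr2, Tlr7 and Tlr13 (CPM, 95% exact Poisson intervals) against the level predicted from each class's C1q and the RPM-like level. Monocyte-like, DC-like and B lymphocyte-like classes and the Cd209a-led cluster are shown on log axes, in both libraries. The line marks equality. Tlr4 lies near the line in DC-like classes, at 0.763 to 1.07 times the prediction, and Tlr13 lies far above it in monocyte-like classes.

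Other genes of the pathway were taken as lists, using genes counted at least 100 times in the RPM-like class, where the median log2 ratio over 9954 genes was 0.20 and 64.9% of these genes were higher in the SCD-labelled library. Nothing particular to a list is read from its counts, since most genes of the class were higher. Of the other receptors, 3 of 3 were higher in the SCD-labelled library, among them Tlr1, the partner of Tlr2, at 26.9 and 47.2 CPM (ratio 0.81) and Tlr12 at 21.0 and 34.5 CPM (0.72). Of the co-receptors 2 were lower and 3 higher, with the scavenger receptor Cd36 at 167 and 25.9 CPM (-2.69) and the lipopolysaccharide carrier Cd14 at 69.5 and 171 CPM (1.30). Chaperones and trafficking factors were divided, 4 lower and 5 higher with a median of 0.13, and Hsp90b1, which folds the receptors, stood at 887 and 1390.3 CPM (0.65). Of the remaining adaptors 1 was lower and 3 higher, with ratios of 0.34 (-0.03 to 0.71) for Ticam1, the adaptor of Tlr3, and 0.33 (0.07 to 0.59) for Tirap, which bridges Tlr2 and Tlr4 to Myd88.

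Downstream, kinases and ubiquitin ligases were 2 lower and 13 higher with a median of 0.44, among them Ikbke at 12.6 and 1.62 CPM (-2.96) and Irak2 at 17.2 and 36.4 CPM (1.08). All 7 transcription factors were higher, with a median of 0.61, including Irf7, a driver of type I interferon, at 12.2 and 34.9 CPM (1.52) and Nfkb2 at 27.8 and 61.1 CPM (1.14). Of the inhibitors 1 was lower and 5 higher with a median of 0.55, and Nfkbia stood at 109 and 201 CPM (0.88). Early response genes were 3 lower and 2 higher with a median of -0.55, with the chemokine Ccl3 at 7.72 and 0.674 CPM (-3.52) and Nfkbiz at 23.3 and 94.9 CPM (2.02). The transcription factors were also mostly higher outside the macrophages, 6 of 7 in Ly6c-high, 7 of 7 in Ly6c-low, 6 of 7 in DC-like and 5 of 6 in B lymphocyte-like cells, with medians of 0.62, 0.38, 0.24 and 0.04. The medians over all genes of those classes were 0.02, 0.09, 0.02 and 0.07, and 52.0%, 60.6%, 51.9% and 60.1% of all genes were higher. The median of the transcription factors thus lay below that of all genes in B lymphocyte-like cells, where 2 of the 6 intervals lay above 0. Irf7 stood at 49.9 and 137 CPM in Ly6c-high monocyte-like cells, a ratio of 1.46 (1.27 to 1.65). Early response genes went the other way in Ly6c-low cells, 5 of 6 lower with a median of -1.38. In DC-like cells 5 of 5 were lower, with a median of -0.66. In Ly6c-high cells 1 of 3 was lower, with a median of 0.46, and in B lymphocyte-like cells 1 of 1 was lower, at -0.15.

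The genes whose levels over 10 classes in each library were most like each member, measured by Pearson's r on log2(CPM + 1) over 20 points that share libraries, were Lgmn (0.96) and Tbxas1 (0.96) for Tlr4, and Lamp2 (0.94) and Anxa5 (0.94) for Tlr2. For Tlr13 they were Bmpr2 (0.97) and Lst1 (0.96), for Tlr7 Cyp4v3 (0.96) and Atg4c (0.95), and for Tlr8 Ifi207 (0.95) and Lamp2 (0.95). For Myd88 they were Arhgap9 (0.95) and Zyx (0.95), for Tlr9 Cd40 (0.91) and Irf4 (0.91), and for Tlr3 Ndst1 (0.87) and Abl1 (0.84). These are descriptions across classes, and they carry no test.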

How the data were processed

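The authors deposited raw UMI count matrices, 1 per library, made from 10x 3′ v3.1 libraries. The submitters' processing notes name Cell Ranger 4.0.0 and GRCm38.p6, while the matrix header names Cell Ranger 3.1.0. The deposited counts were used unscaled. Cells with 500 to 5000 genes, at most 15% mitochondrial and at most 30% ribosomal-protein UMIs were kept (145953464 and 73986356 UMIs in all barcodes). Doublets were scored with Scrublet and left in, marking 11.1% of the wild-type-labelled library, where the automatic threshold failed and the highest-scoring 10% were taken, ties included, and 18.5% of the SCD-labelled library. Counts were scaled with scran 1.30.0 and clustered with scanpy 1.11.5 (Leiden, resolution 1) without the 8 genes, the pathway lists, hemoglobin and sex-linked genes. Clusters were named RPM-like where the median macrophage marker was at least 4-fold above reference B cells with at least 3 detected, EBI-like where the median erythroid marker was also at least 2-fold above them, and otherwise from at least 3 detected markers at least 2-fold above the remaining cells. Named genes were the 8 members, the 2 of each pathway list with the largest absolute log2 ratio in RPM-like cells, and the 2 genes most like each member among 10053. Class sums were compared as described, DESeq2 1.42.0 and edgeR 4.0.16 serving only for alternative scaling. The intervals were tried on simulated Poisson counts, which hold no spread between cells, mice or libraries, so this checks their calculation only. Members and lists were chosen with earlier results of these data known. Alternatives covered filters, doublets, scaling, clustering and free RNA. Motif matches use RefSeq windows.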

Additional observations from a re-analysis of the deposited data

How the results depend on the processing

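No paired analysis was possible because each group is 1 library and the labels give no shared replicates. Of 485 log2 ratios recomputed over the alternatives, 416 stayed inside the original interval, 65 left it and 4 changed sign from an interval that had excluded 0. The sign changed in 50 in all, of which 46 had an original interval that included 0. Of the 4, Myd88 became -0.47, Tlr4 -0.018 and Tlr7 0.27 in RPM-like cells of the Rgs1-led cluster alone, chosen after seeing the data. That cluster held 50 cells of the wild-type-labelled library, and its intervals for these genes all included 0. With predicted free RNA subtracted, Tlr4 in Ly6c-high monocyte-like cells became 0.37. The number of the 8 genes lower in the SCD-labelled library moved in B lymphocyte-like cells from 4 to 7 with Scrublet doublets removed, to 7 with each library clustered on its own and to 2 with free RNA subtracted. Subtraction moved it from 3 to 1 in Ly6c-high, from 3 to 1 in Ly6c-low and from 5 to 1 in DC-like cells. Subtraction also moved the number of genes with the same highest class in both libraries from 5 to 3, with Tlr7 and Tlr8 lost. The mean over cells of per-cell CPM moved the number of lower genes from 3 to 1 in Ly6c-low and from 5 to 3 in DC-like cells. In RPM-like cells it moved from 4 to 2, and the Rgs1-led cluster alone also gave 2. The cause of these moves was not tested. Free RNA could not be subtracted from RPM-like cells, whose own C1q sets the prediction. Depth limits Tlr9 in every class and Tlr8 in DC-like and B lymphocyte-like cells.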

Other observations

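Tlr11, a receptor for profilin of protozoa, was named after its values were seen. It stood at 0.539 CPM in the wild-type-labelled library and 9.44 CPM in the SCD-labelled library in RPM-like cells, a log2 ratio of 4.13 (95% exact conditional interval 3.12 to 5.32). In Ly6c-high monocyte-like cells Tlr11 stood at 1.33 and 13.6 CPM, a ratio of 3.36 (2.36 to 4.55), and in DC-like cells at 4.53 and 24.9 CPM, a ratio of 2.46 (1.86 to 3.12). The direction was the same in all 5 classes for which the pathway lists were tabulated, with intervals that reached 0 in Ly6c-low monocyte-like and B lymphocyte-like cells.

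Unc93b1, the chaperone that carries the endosomal receptors, stood at 548 and 763 CPM in RPM-like cells, a ratio of 0.48 (0.43 to 0.53), and at 424 and 551 CPM in DC-like cells, a ratio of 0.38 (0.31 to 0.45). In Ly6c-high monocyte-like cells, where Tlr7 and Tlr13 were higher in the SCD-labelled library, Unc93b1 stood at 459 and 483 CPM with a ratio of 0.07, whose interval reached 0. Unc93b1 was also picked after its values were seen. Each group is 1 library, and none of these differences was tested.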
